A study of Capra hircus with 2 samples.

Results

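miR-101 is a microRNA (miRNA) of the 3p arm of its hairpin precursor, and its reads were described here in 2 small RNA libraries of the goat mammary gland by where they started and where they ended. It was selected on earlier counts of these same data, in which its stage ratio and a second 5′ start had been seen, so its levels and its variants are given as a description without a test. A deposited read sequence (a tag) was taken as miR-101 when it held bases 4 to 17, the middle 14 bases, of the 21-base listed sequence. This held for 610 of the 1692810 distinct tags, with 453 of the 788915 tags of the dry period library and 383 of the 1108514 tags of the peak lactation library, and 226 of the 610 tags occurred in both. miR-101 is 1 of the 346 conserved miRNAs that the study lists.

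The samples were mammary glands of Xinong Saanen dairy goats aged 2.5 years. Material of 3 goats was pooled at each stage, dry period or peak lactation, and 1 library was sequenced from each pool. The study's sources differ on whether glands were pooled before extraction or RNA after it. The stage of a library is the one its title names. The study places peak lactation at 75 days and the dry period at 320 days after lambing, whereas the stage field of the labels gives 320 days for peak lactation and 75 days for the dry period. There was thus 1 library per stage and no replicate, and every interval below covers the counting of reads only, not differences between goats, pools or library preparations. In bulk tissue, fewer cells that hold a miRNA and less of it per cell cannot be told apart.

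A miRNA is cut from its hairpin by Drosha and Dicer, and one strand is loaded into an Argonaute protein. Bases 2 to 8 from its 5′ end, the seed, pair with target mRNAs. A start that is shifted by a single base therefore carries another seed, whereas a shifted 3′ end keeps it. miR-101 is known for repressing EZH2, a histone methyltransferase, and PTGS2, the cyclooxygenase-2 that makes prostaglandins, and cyclooxygenase-2 is a target described in the mouse mammary gland. Mammalian genomes hold more than 1 miR-101 locus with the same mature sequence. RefSeq names MIR101 once for the goat assembly ARS1.2, as an 83-base gene whose nearest named protein-coding genes are JAK1 and AK4. The deposited tags carry no genome position, so reads could not be assigned to a locus.

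The sequences that carry the result are the tag identical to the listed sequence, the leading tags with the listed start and with the start 1 base earlier, and miR-144, whose listed sequence resembles miR-101 at its 5′ end. They are shown 5′ to 3′ with T for U, as the files write them, and the capitals mark the seed.
miR-101, listed start and listed end: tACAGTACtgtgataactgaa
miR-101, listed start, 1 base shorter at the 3′ end: tACAGTACtgtgataactga
miR-101, start 1 base earlier, listed end: gTACAGTActgtgataactgaa
miR-101, start 1 base earlier, 1 base shorter at the 3′ end: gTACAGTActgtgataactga
miR-101, listed start, 1 added adenine: tACAGTACtgtgataactgaaa
miR-101, listed start, 1 more base of the precursor: tACAGTACtgtgataactgaag
miR-144: tACAGTATagatgatgtac

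In the dry period library miR-101 had 101954 reads, or 6865 reads per 1000000 clean reads (RPM; 95% exact interval 6823 to 6907). In the peak lactation library it had 50005 reads, or 3182 RPM (3155 to 3210). These were 0.686% and 0.318% of the clean reads, at rank 17 and rank 12 among 335 distinct cores of the listed miRNAs. Cores with shared reads rank separately here, such as those of miR-103 and miR-107, which share 99.9% of their reads. Per clean read miR-101 was lower at peak lactation, with a log2 ratio of peak lactation over dry period of -1.11 (-1.12 to -1.09), but this direction turned when the counts were scaled to miRNAs. The log2 ratio was 0.95 per read with any listed core, 0.34 with the TMM factors of edgeR and 0.30 with the size factors of DESeq2.

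The direction per clean read was that of most miRNAs. Of 261 listed cores with at least 1 RPM in a library, 179 (68.6%) were lower at peak lactation by a log2 ratio past -1, as was miR-101, and 6 (2.30%) were higher past 1. The median log2 ratio was -1.46, with quartiles of -2.15 and -0.86, and 160 of the cores were lower than miR-101 and 100 higher. Per read with any listed core the split became 18 lower and 89 higher with a median of 0.60. TMM factors gave 43 lower and 33 higher with a median of -0.01, and DESeq2 size factors gave 43 and 31 with a median of -0.05.

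**Figure D1:**
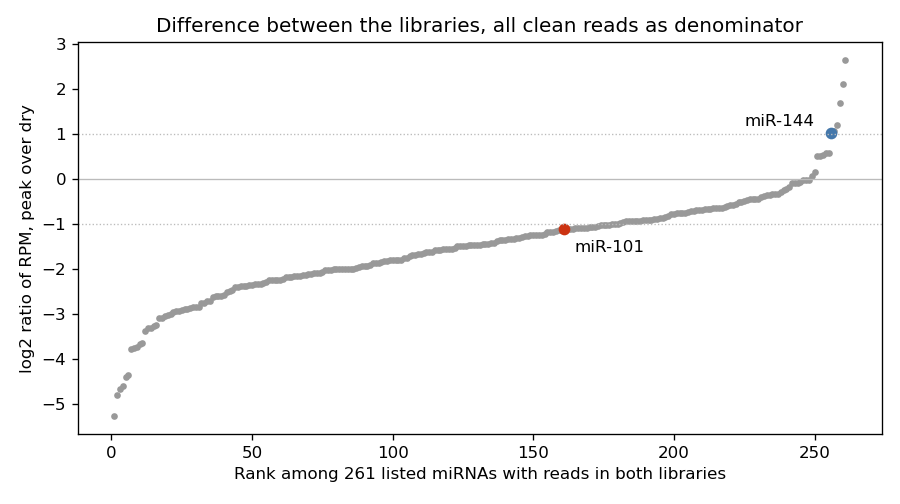
Each grey point is a listed miRNA core with at least 1 RPM in a library, ranked along the x axis by its log2 ratio of RPM at peak lactation over dry period, which is on the y axis; dotted lines mark ratios of -1 and 1. Of the 261 points, miR-101 (red, -1.11) lies above 160, and its ratio turns to 0.95 when counts are taken per read with a listed core; miR-144 (blue) lies at 1.03.

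The nearest miRNAs to miR-101 in log2 ratio, among 61 with a core of their own and at least 1000 reads in both libraries, were miR-423-5p (-1.11), miR-181a (-1.02) and miR-24-3p (-1.02) above it and miR-140 (-1.13), miR-423-3p (-1.16) and miR-26b (-1.19) below it. The counting intervals of miR-423-5p, miR-140 and miR-423-3p overlapped that of miR-101.

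The 5′ ends of miR-101 fell on neighbouring bases. In the dry period library 58733 reads (57.6%, 57.3 to 57.9%) began at the listed first base and 43019 reads (42.2%, 41.9 to 42.5%) began 1 base earlier. In the peak lactation library 31357 reads (62.7%, 62.3 to 63.1%) had the listed start and 18556 (37.1%, 36.7 to 37.5%) the earlier start. Every other start was rare. Starts 1 base later had 136 and 57 reads, starts 2 bases later 54 and 25 reads, and starts 2 bases earlier 9 and 8 reads.

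The extra first base was guanine in 42802 of the 43019 dry period reads (99.5%) and 18439 of the 18556 peak lactation reads (99.4%). Guanine is also the base that precedes the listed sequence in the precursor that the study sequenced from goat DNA. Adenine followed with 125 and 63 reads.

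The earlier start changes the seed from ACAGTAC to TACAGTA. No other listed miRNA had either of these 7-base seeds. With bases 2 to 7 alone, miR-144 matched the listed start and no listed miRNA matched the earlier start. miR-144, a miRNA of the red blood cell lineage, was rarer and went the other way per clean read, with 258 reads (17.4 RPM) in the dry period library and 559 reads (35.6 RPM) at peak lactation, a log2 ratio of 1.03 (0.82 to 1.25). Its reads did not share the second start, since 257 of 258 and all 559 began at its listed first base.

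The earlier start made up less of miR-101 at peak lactation. All reads off the listed start summed to 42.4% (dry period) and 37.3% (peak lactation), a difference of -5.10 percentage points (Newcombe 95% interval -5.62 to -4.58). Put as a ratio, there were 0.732 reads with the earlier start for each read with the listed start in the dry period library and 0.592 at peak lactation. This ratio is taken within a library, so it is the same under every scaling of the libraries. The log2 ratio of peak lactation over dry period was -1.29 (-1.32 to -1.27) for the earlier start, from 2897 to 1181 RPM, and -0.99 (-1.01 to -0.97) for the listed start, from 3955 to 1996 RPM. The gap between the log2 ratios of the starts was -0.31 (-0.34 to -0.28). With 1 library per stage this gap has no replicate check.

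**Figure D2:**
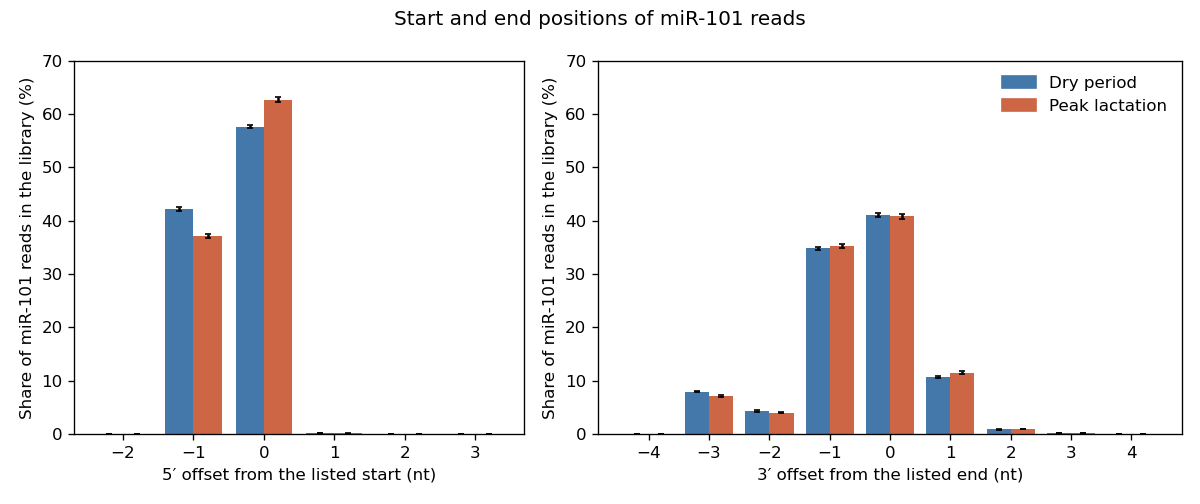
Bars give the share (%) of the miR-101 reads of each library at each 5′ offset (left) and 3′ offset (right) from the listed ends, in nt, where negative values lie towards the 5′ end; error bars are exact 95% counting intervals. The start at -1 holds 42.2% of the dry period reads and 37.1% of the peak lactation reads, whereas the 3′ ends of the libraries nearly coincide.

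The 3′ ends were more varied than the starts and differed less between the libraries. Of the dry period reads 41.1% ended at the listed last base, 34.8% ended 1 base before it, 4.35% ended 2 bases and 7.97% ended 3 bases before it, and 10.7% ended 1 base after it. At peak lactation the same ends had 40.8%, 35.3%, 4.04%, 7.11% and 11.5% of the reads. Reads off the listed 3′ end made up 58.9% and 59.2%, a difference of 0.23 points whose interval (-0.30 to 0.76) includes 0. That sum joins small opposite differences. Reads ending before the listed end differed by -0.71 points (-1.24 to -0.18), and reads ending after it by 0.94 points (0.59 to 1.29). The tag identical to the listed sequence held only 24.0% of the dry period reads and 25.9% of the peak lactation reads of miR-101.

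The start and the end of a read were linked. In the dry period library 40.6% of the reads with the listed start ended before the listed 3′ end, against 56.2% of the reads with the earlier start, a gap of 15.6 points (15.0 to 16.2). At peak lactation the shares were 40.6% and 56.4%, a gap of 15.8 points (14.9 to 16.6). Reads that ran past the listed 3′ end were 16.9% of those with the listed start and 4.69% of those with the earlier start in the dry period library, and 17.04% and 5.29% at peak lactation. The earlier start thus came with a shorter 3′ end in both libraries. Tags under 18 nt were absent from the files, so the end 3 bases short was the shortest that a read with the listed start could show, while a read with the earlier start could show 1 base less.

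Within a start, the summed share of short 3′ ends was close between the libraries. For the listed start the share ending before the listed base differed by 0.04 points (-0.63 to 0.71) and for the earlier start by 0.17 points (-0.68 to 1.02). The end 3 bases short, among reads with the earlier start, moved from 11.2% to 9.99%, a difference of -1.20 points (-1.72 to -0.67), while the end 1 base short moved from 39.0% to 40.5%, a difference of 1.46 points (0.62 to 2.30). These opposite differences nearly cancel in the sum. The end 1 base past the listed one differed by 0.55 points (0.19 to 0.92) for that start. Over all miR-101 reads, 30.8% in the dry period library and 31.5% at peak lactation were 18 to 20 nt long. Among all clean reads that class made up 16.4% and 27.1%.

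**Figure D3:**
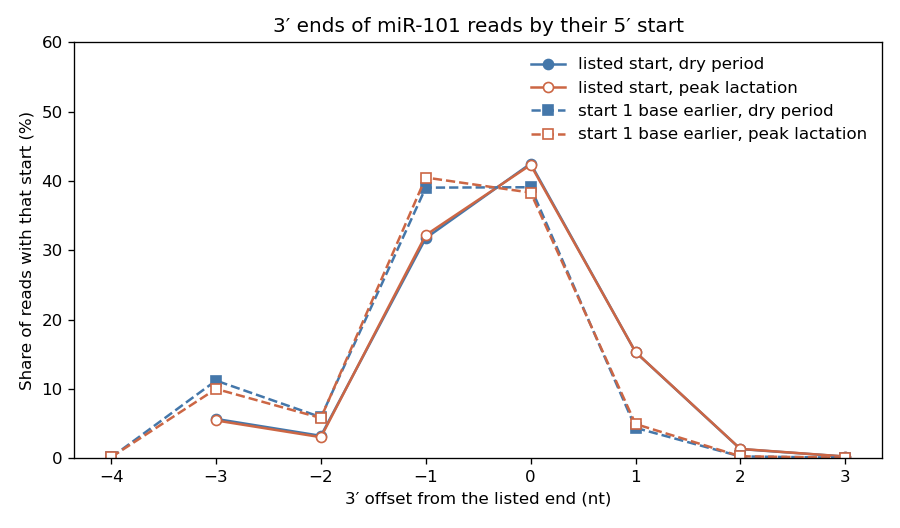
The x axis is the 3′ offset from the listed end in nt and the y axis the share (%) of the reads with that start; solid lines with circles are reads with the listed start and dashed lines with squares reads that start 1 base earlier, blue and filled for the dry period, orange and open for peak lactation. The lines of the libraries lie close for each start, while the starts differ at offset 1 (15.3% for both libraries with the listed start, 4.36% and 4.91% with the earlier start).

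Bases past the listed 3′ end differed between the starts as well. Of the 8979 dry period reads with the listed start that ended 1 base past the listed end, 54.4% had adenine as last base, 20.5% guanine, 16.9% thymine (uracil in the RNA) and 8.17% cytosine. Only the last base was sorted, and some tags differed from the listed sequence before it, the largest with 95 dry period reads. Guanine is the next base of the precursor. Of the 1877 dry period reads with the earlier start that ended at the same base, 93.7% had adenine and 0.852% guanine. A guanine in the place of the next precursor base was thus seen on 1839 reads with the listed start and on 16 with the earlier start. The peak lactation library had the same pattern, with 953 guanine reads of 4800 (19.9%) for the listed start and 7 of 912 (0.768%) for the earlier start. The gap in the guanine share between the starts was -19.6 points (-20.5 to -18.7) in the dry period library and -19.1 points (-20.3 to -17.7) at peak lactation. Adenine, the commonest added base, does not continue the sequenced precursor. An adenine added to a read that had lost its last base cannot be told apart from the listed end.

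With 2 bases past the listed end, 379 of 764 dry period reads with the listed start (49.6%) had guanine and then adenine, and 5 had the 2 guanines of the sequenced precursor. At peak lactation the numbers were 218 of 415 reads (52.5%) and 1 read. The second base of most such reads therefore differed from the sequenced precursor. The precursor of a second locus was not analysed here.

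Tags that matched the precursor over their whole length held 88.1% of the dry period reads and 87.2% of the peak lactation reads of miR-101. The 4 leading tags held 74.0% and 74.3%, and the 12 leading tags 95.7% and 95.1%. Tags seen once in their library made up 0.221% and 0.422% of the reads. Reads with the listed ends and exactly 1 substitution amounted to 3.41% and 3.66% of the reads identical to the listed sequence.

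Taken by start and end together, 10 forms held more than 1% of the reads of a library, and they held 98.7% and 98.5% of all miR-101 reads. The 5 forms with the listed start had log2 ratios per clean read from -1.08 to -0.97, and the 5 forms with the earlier start from -1.46 to -1.12. The values of the groups did not overlap. The counting interval of the earlier start that ended 1 base past the listed end (-1.24 to -1.01) did overlap those of the listed start. The exception was the listed start that ended 1 base short (-1.002 to -0.931). The leading form with the listed start and end went from 1681 to 845 RPM, and the leading forms with the earlier start went from 1132 to 452 RPM (listed end) and from 1131 to 478 RPM (1 base short).

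**Figure D4:**
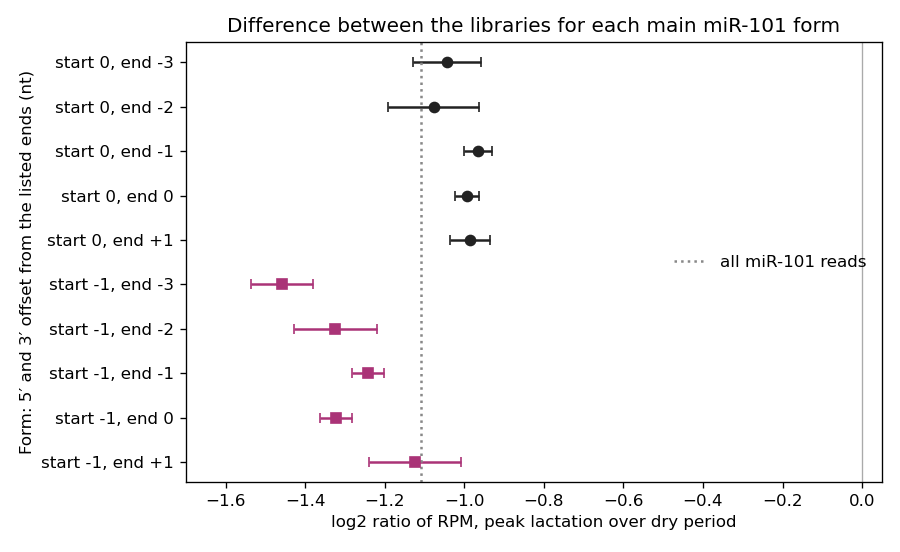
Each point is a form with more than 1% of the miR-101 reads of a library, named on the y axis by its 5′ and 3′ offsets in nt; the x axis is the log2 ratio of RPM at peak lactation over dry period with its exact 95% counting interval, and the dotted line is the ratio of all miR-101 reads (-1.11). Circles (listed start) lie between -1.08 and -0.97 and squares (start 1 base earlier) between -1.46 and -1.12, all per clean read.

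A threshold of 2-fold per clean read lay among these values. All miR-101 reads were past a log2 ratio of -1, whereas tags that began with the first 18 listed bases gave -0.99 and the identical tag -0.999, with an interval from -1.03 to -0.97.

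The other arm of the hairpin was almost absent. In the 83-base precursor the listed sequence fills bases 51 to 71, and the only tags identical to a stretch before it lay at bases 14 to 35 of the 5p arm, tcagttatcacagtgctgatgc, or began 1 base later. They had 2 reads in the dry period library and 3 at peak lactation, against 89840 and 43624 reads that matched the precursor in the 3p arm. That is 22.3 (2.70 to 80.4) and 68.8 (14.2 to 201) per 1000000 reads of the pair. At these counts no difference between the libraries was detectable. Passenger reads of a locus with another 5p sequence would not have been counted.

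Compared with other miRNAs, miR-101 had many reads off its listed start. Among the 61 miRNAs with a core of their own and at least 1000 reads in both libraries, the median share off the listed 5′ end was 1.25% in the dry period library and 1.10% at peak lactation. A higher share than that of miR-101 was found for 1 miRNA in the dry period library and for 3 at peak lactation. The nearest in the dry period library were miR-2478 (78.2%) above it and miR-140 (41.2%), miR-345-3p (38.1%) and miR-411 (28.3%) below it. The 5′ share depends on the base at which the list starts a miRNA, and 60 of the 61, miR-101 among them, had their listed start as the leading one in both libraries. The exception was miR-2478. Cores that belong to more than 1 listed name were outside the 61. Among these, the core of miR-2284h and miR-2284x had 66844 and 18658 reads. Of them 98.0% and 98.5% were off the listed start of miR-2284h, and the leading start lay 2 bases earlier.

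miR-140, a miRNA known from cartilage with the listed sequence aCCACAGGgtagaaccacgga, was among the nearest both in log2 ratio and in dry period share off the listed start. It too had a main second start 1 base earlier, with 39.6% of its 140293 dry period reads and 41.9% of its 67702 peak lactation reads. Its share off the listed start was 2.03 points higher at peak lactation (1.58 to 2.48), whereas that of miR-101 was 5.10 points lower. For miR-423-3p, whose leading other start also lay 1 base earlier, the share was 5.18 points higher (2.30 to 8.13).

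In percentage points, the difference in start use of miR-101 was at the low end of the 61 miRNAs. The share off the listed start was lower at peak lactation for 38 of them. The median difference was -0.02 points, with quartiles of -0.17 and 0.11. The other 60 all had a higher value than the -5.10 points of miR-101. The median dry period share of the 61 was 1.25%, so most of them could not fall by 5.10 points. In proportion to the dry period share, others fell more than miR-101, such as miR-320 (7.60% to 5.70%) and miR-1839 (14.4% to 11.7%). Of 9 other miRNAs with more than 10% of their dry period reads off the listed start, 4 were lower at peak lactation and 5 higher, from -2.71 points for miR-1839 to 6.41 points for miR-200b. Outside the 61, miR-151* had a larger drop, from 22.4% of 2817 dry period reads to 10.9% of 2186 peak lactation reads. It was left out because up to 99.6% of its reads also held another listed core. The core of miR-28 had nearly the same counts, 2815 and 2175 reads, of which up to 99.8% also held another listed core. Most of these reads (77.9% and 90.1%) were off the listed start of miR-28, with the leading start 2 bases earlier. A changed start of miR-151* and a changed mix of miR-151* and miR-28 thus cannot be told apart here. These differences compare the 2 libraries and not the stages, because no replicate gives the spread of such shares.

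**Figure D5:**
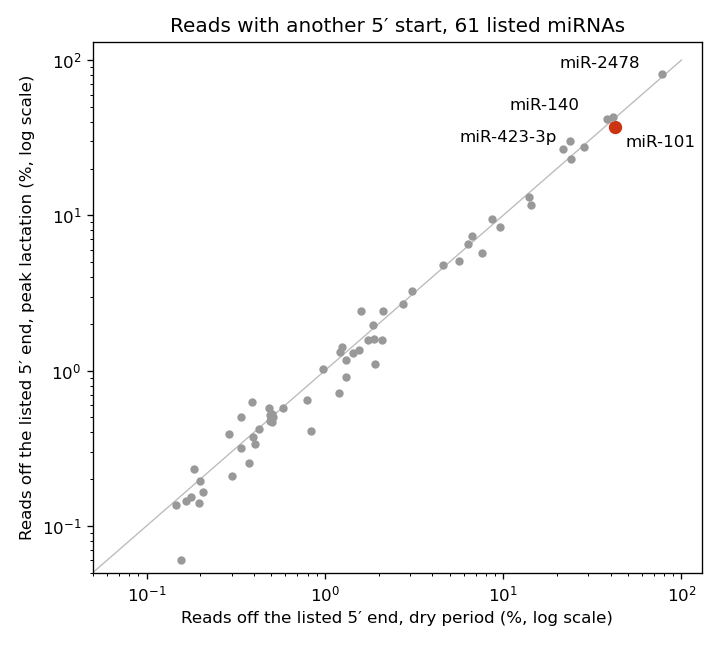
Each point is 1 of 61 listed miRNAs, with the share (%) of its reads off the listed 5′ end in the dry period library on the x axis and at peak lactation on the y axis, both on log scales; the grey line marks equal shares. miR-101 (red, 42.4% and 37.3%) lies below the line, and miR-140 (41.2% and 43.3%) and miR-423-3p (21.6% and 26.8%) lie above it.

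The 3′ ends of miR-101 were less unusual. Its share off the listed 3′ end was 58.9% in the dry period library, where the median of the 61 miRNAs was 53.7%, and 59.2% at peak lactation, with a median of 55.3%. Reads ending before the listed 3′ end were more frequent than in most, at 47.2% and 46.5% against medians of 18.3% and 15.96%.

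The libraries held 14851375 (dry period) and 15712891 (peak lactation) clean reads of 18 to 44 nt, and 3 reads, taken as the smallest abundance that could be shown, were 0.202 and 0.191 RPM. Reads with any listed core made up 63.5% of the dry period library and 15.2% of the peak lactation library. Lists of cell type miRNAs were all present in both libraries. Summed epithelial miRNAs (6 of 6: miR-200a, miR-200b, miR-200c, miR-141, miR-429, miR-205) had 3023 and 1553 RPM. Those of striated muscle (4 of 4) had 7324 and 3888 RPM, of which miR-1 alone had 7252 and 3874. The reads of miR-133a and miR-133b were the same and were counted for each. Smooth muscle (2 of 2) had 12226 and 5370 RPM and endothelium (1 of 1) 117 and 69.3 RPM. Red blood cells (3 of 3, miR-144 among them) had 112 and 192 RPM. Members of a list differed in log2 ratio per clean read. It was -0.86 for miR-143 and -2.75 for miR-145 of smooth muscle, and 1.07 for miR-451 and 0.15 for miR-486 of red blood cells. The epithelial members ranged from -0.09 for miR-141 to -1.99 for miR-429. In striated muscle the log2 ratio was -0.90 for miR-1 and -2.59 for miR-206. The part of tissue composition in the values of miR-101 was not tested.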

How the data were processed

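Small RNA of goat mammary gland was sequenced in 2 libraries, each from a pool of 3 goats. Before deposit the authors filtered for quality, adaptors, missing inserts, poly(A) and a length of at least 18 nt. The deposited values are raw read counts of each distinct clean sequence, neither normalized nor aligned. The labels name CASAVA, without a version.

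The members and lists were chosen with earlier results of these data known. Of the study's supplements, only names and sequences were read. Every listed miRNA was counted by its middle 14 bases, and identical cores were counted once. A read that held several different cores counted for each of them. For miR-101 the middle 14 bases were bases 4 to 17, and offsets were measured from the listed ends. RPM are counts per 1000000 clean reads, as in the study's methods. Shares have exact Clopper-Pearson 95% intervals, log2 ratios the exact interval of the split of their reads, differences of shares Newcombe intervals, and the gap between log2 ratios a normal interval. PCR reads without molecular identifiers are not independent molecules, so intervals cover counting error only. Background cores needed 1 RPM in a library; a count of 0 was set to 3 reads for a call. No test between stages was made, and no p is given. The named miRNAs were those with bases 2 to 7 of miR-101 or of a 5′ variant above 1% of reads, and the 3 nearest on each side in log2 ratio and in dry period share off the listed start, among miRNAs with under 1% of reads shared with another core and at least 1000 reads in both libraries. Only 1 lay above miR-101 in that share. Others were named after their values were seen (miR-320, miR-1839, miR-200b, miR-151*, miR-2284h and miR-2284x) or for their shared reads (miR-28, miR-103 and miR-107).

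Counting was tested on simulated tags with the listed sequence or 1 extra 5′ base. For 151 miRNAs with a mean of at least 100 reads in the real libraries, the absolute log2 error had a median of 0.034 and a maximum of 0.53. The share with the extra base had a median error of 0.63 points. The simulated counts were random draws, so these errors include the sampling noise of the draws. Every simulated tag held its exact core, so reads with a changed core were not tested. The simulated tags had no 3′ variation and cores with shared reads were left out, so neither was tested. Scaling factors came from edgeR 4.0.16 and DESeq2 1.42.0 in R 4.3.3, and all else from scipy 1.17.1, numpy 2.4.6 and matplotlib 3.10.9 under Python 3.11.15.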

Additional observations from a re-analysis of the deposited data

How the results depend on the processing

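The scaling of the libraries decided the direction of the miR-101 difference, and the counting rule did not. The log2 ratio of all miR-101 reads, -1.11 per clean read, was 0.95 per read with a listed core, 0.34 with TMM factors and 0.30 with DESeq2 size factors. That of the earlier start, -1.29, was 0.77, 0.15 and 0.12. The number of listed cores past 2-fold, 185, was 107, 76 and 74. Reads with the listed start and its first 18 bases gave -0.99 for miR-101 and the identical tag -0.999. Keeping only tags that matched the precursor moved the share off the listed start to 44.6% (dry period) and 39.3% (peak lactation), and off the listed 3′ end to 54.5% and 54.4%. With that rule, another core position, a core of 16 bases, 1 substitution or a minimum of 2 or 5 reads per tag, the difference in share off the listed start stayed between -5.24 and -5.09 points, and the gap between the starts in log2 ratio was -0.31 each time. No paired analysis was possible because each stage has 1 library, and for the same reason no replicate could be left out. The depth limits the 5p arm, with 2 and 3 reads, and forms under 18 nt.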
